A study of Mus musculus with 6 samples.

Results

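The transcripts described here encode the secreted and membrane-bound metalloproteinases that cut extracellular matrix and the tissue inhibitors that block them. Members were taken from the deposited gene table as protein-coding genes with a symbol of the Mmp, Adamts or Timp series, which gave 45 genes among 40303 gene models, of which 20056 are protein coding. They comprise 22 matrix metalloproteinases (MMPs), 19 ADAMTS proteases and 4 tissue inhibitors of metalloproteinases (TIMPs). Mmp1a fits the symbols but is listed as a polymorphic pseudogene and was left out. The measurements are messenger RNA levels in CT26 tumours, a transplantable colon carcinoma line that had been implanted subcutaneously in 6 syngeneic BALB/c hosts of WT genotype. In 3 mice the treatment was PEGylated glutaminase, an enzyme that breaks down circulating glutamine, given into the peritoneum at 50 IU per kg, and 3 mice were injected with vehicle, which was PBS containing 10% glycerol. Dosing began once tumours could be felt and was repeated after 3 days, for 2 treatments in all, and each tumour gave 1 library. The sources used here do not give the age or sex of the mice.

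MMPs and ADAMTSs are zinc-dependent proteases made as inactive precursors. MMPs cut collagens, gelatin, elastin and many cell surface and secreted proteins, and some carry a membrane anchor. ADAMTSs bear thrombospondin repeats that tether them to matrix, and they trim proteoglycans, procollagens, von Willebrand factor or fibrillin-bound partners. TIMPs bind the active site of MMPs in a tight complex, and Timp3 also blocks several ADAMTSs. In solid tumours these enzymes come from cancer cells, fibroblasts, macrophages, neutrophils and endothelial cells, so that a transcript level in whole tissue sums over all of them.

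Whole reads recovered from the table numbered 17380129 to 18051480 per vehicle library and 16455052 to 16791267 per PEG-glutaminase library. Of the markers of intestinal epithelium, the origin of CT26, Krt20 was lower in every PEG-glutaminase tumour, at 4669 ± 488 normalized counts in vehicle and 3125 ± 686 in PEG-glutaminase tumours (limma adjusted p = 0.153, DESeq2 adjusted p = 0.0103), while Vil1 had at most 4.12 and Cdx1 was at 0 in every library. Of the 7 tested markers of this list 1 (Cdx2) was higher and 3 (Krt20, Cdh1 and Epcam) were lower at an unadjusted limma p under 0.05, and limma called 0. Over all tested genes 8.92% were higher and 9.51% lower at that unadjusted p. Krt8 was also higher in every PEG-glutaminase tumour (log2 difference 0.85, limma adjusted p = 0.332). Cdh1 stood at 125 and Epcam at 58.0 in vehicle 1, which also had the high keratinocyte markers given next. Elsewhere they stood at 31.1 to 59.8 and 2.07 to 8.83. Markers of surrounding tissue were uneven. The summed level of 8 keratinocyte markers was 7958 normalized counts in vehicle 1 and 64.3 to 231 in the other 5 libraries, and that of 8 skeletal muscle markers was 1051 in vehicle 3, 1628 in PEG-glutaminase 2 and 131 to 561 in the other 4. The 6 T cell markers summed to 977, 983 and 1316 in vehicle and 554, 139 and 807 in PEG-glutaminase tumours. All 6 had a lower mean level after treatment, 5 of them with no overlap between groups. Over all tested genes 12.7% were lower with no overlap. Of the 6 markers limma called 0 (1 lower at an unadjusted p under 0.05) and DESeq2 called Cd3d (adjusted p = 0.0129). The part of these epithelial and T cell markers in the differences reported for the proteases was not tested.

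Per length of transcript, Timp1 and Timp2 were the most abundant members, followed by the membrane-anchored Mmp14. On a scale of RPKM (reads scaled to transcript length in kilobases and to the reads of the library), Timp1 stood at 400.2 to 623 over the 6 libraries, Timp2 at 187 to 233 and Mmp14 at 61.3 to 76.4, so that these 3 ranges do not overlap. Next came the macrophage elastase Mmp12 at 8.22 to 32.3, the collagenase Mmp13 at 5.01 to 21.2, the stromelysin Mmp3 at 9.29 to 15.2 and Mmp11 at 9.50 to 13.5, whose ranges overlap. The highest ADAMTS was Adamts1 at 6.51 to 12.2, followed by Adamts4 at 7.26 to 9.50. Mmp14 alone made up 36.6% to 52.7% of the summed MMP level per length, and Timp1 with Timp2 made up 99.36% to 99.52% of the summed TIMP level.

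**Figure D1:**
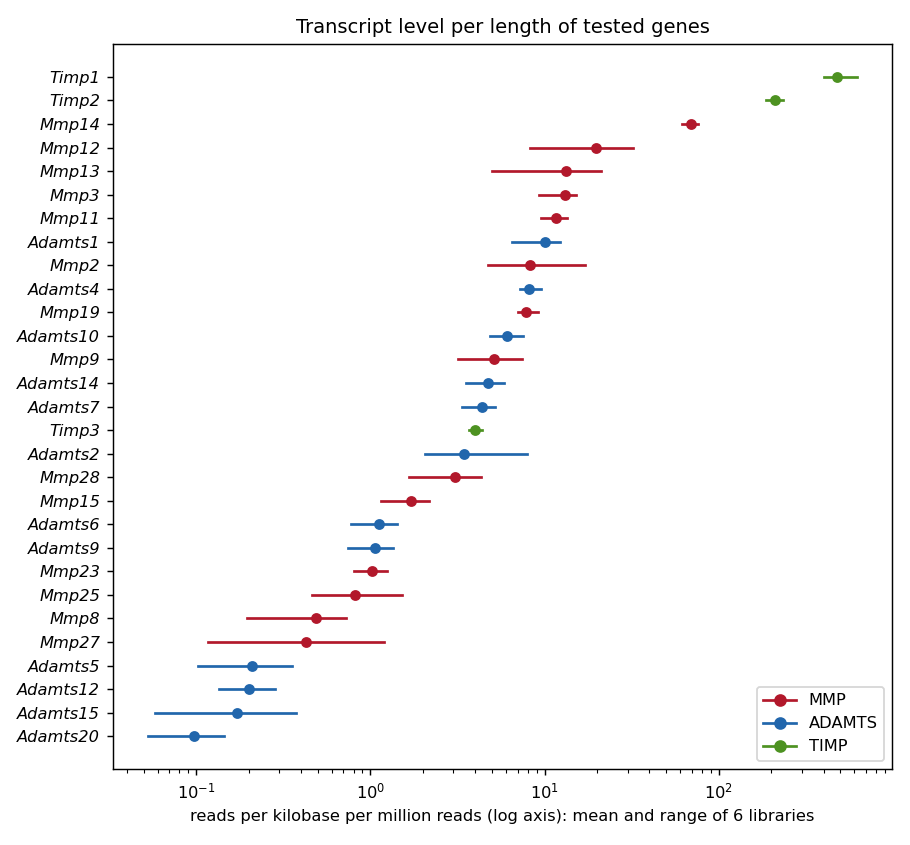
Mean (point) and range over the 6 libraries (line) of the level per transcript length of each of the 29 tested genes, in RPKM on a log axis, coloured by family. Timp1, Timp2 and Mmp14 lie above all other members.

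Many members were silent or nearly so. In all 6 libraries 6 genes were at 0, namely the collagenase Mmp1b, the matrilysin Mmp7, the membrane-type Mmp16, the enamel protease Mmp20, the procollagen protease Adamts3 and Adamts18. A count of 0 among 102872849 reads allows up to 0.0292 RPM (reads scaled to library size). Another 10 genes had between 0 and 13 reads in each library and a mean under 10 normalized counts, and were not tested: Mmp10, Mmp17, Mmp21, Mmp24, Adamts8, Adamts13, Adamts16, Adamts17, Adamts19 and Timp4. The tested members were thus 14 MMPs, 12 ADAMTSs and 3 TIMPs. Of these, Mmp27 had a vehicle mean under 10 and entered the test through the PEG-glutaminase libraries.

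The comparison asks which of these transcripts differ in tumours of mice given PEG-glutaminase. Among the 29 tested members limma called 0, against 0.0369% of 13557 genes tested, at an adjusted p threshold of 0.05. At an unadjusted limma p under 0.05 there were 3 members higher (Mmp9, Adamts14 and Mmp27) and 4 lower. The background was 8.92% of genes higher and 9.51% lower. Mmp27 passed the filter only through the PEG-glutaminase libraries, so the filter favoured its direction. Mmp9 and Adamts14 were the members nearest to passing, both higher, and DESeq2 called these 2 and no other of the 26 members for which it gave an adjusted p (background 3.9%), while edgeR called 0 (background 0.0369%). At an unadjusted edgeR p under 0.05 there were 6 members, and 2475 of all 13557 genes. The groups did not overlap in 5 members, 2 higher (Mmp9 and Adamts14) and 3 lower (Mmp14, Mmp25 and Mmp11), which is 17.2% of the tested members against a background of 25.8% of all tested genes.

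The 3 families had no common direction. The median log2 difference (PEG-glutaminase minus vehicle, on log2 of normalized counts + 1) was -0.12 for the MMPs, with 5 of 14 higher, 0.18 for the ADAMTSs, with 8 of 12 higher, and -0.06 for the TIMPs, with 1 of 3 higher. Over all tested genes the median was -4.97e-05, with 50% of genes higher. Leaving out vehicle 2 put the MMP median at 0.0669 and the ADAMTS median at 0.0491. Without PEG-glutaminase 2 they stood at -0.0529 and 0.0673, so that the gap between these families was smaller without either library, and its order turned without vehicle 2. Differences ranged from -0.86 (Mmp25) to 1.30 (Mmp27) among MMPs, from -0.36 to 0.92 among ADAMTSs and from -0.15 to 0.08 among TIMPs. Mmp27 passed the filter only through the PEG-glutaminase libraries and is 1 of the 5 MMPs counted as higher.

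**Figure D2:**
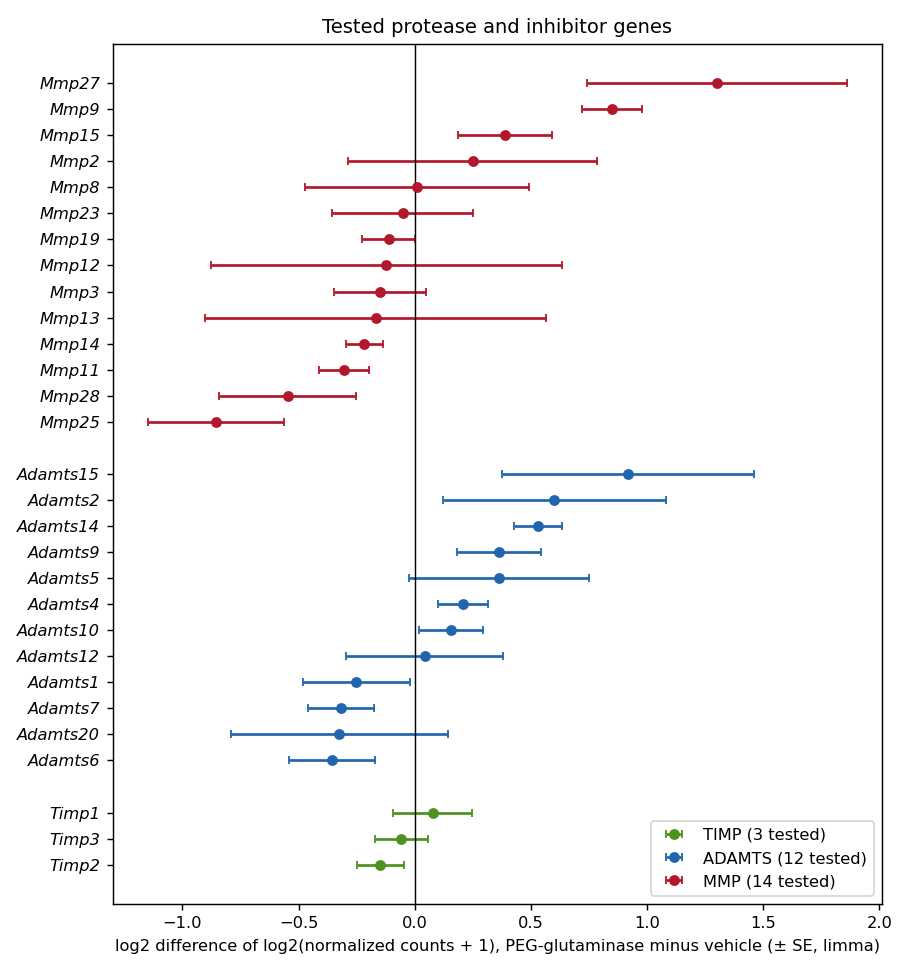
Fitted log2 difference (PEG-glutaminase minus vehicle, 3 tumours each) with its limma standard error for the 29 tested genes, grouped by family. Mmp9 and Adamts14 combine a difference above 0.5 with a short error bar, and the 3 TIMPs lie between -0.15 and 0.08.

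Of the gelatinases, which digest denatured collagen and basement membrane, Mmp9 differed most clearly between groups and Mmp2 did not. Mmp9 (ENSMUSG00000017737) had 220.2, 179 and 195 normalized counts in vehicle tumours and 348, 327 and 398 in PEG-glutaminase tumours. Every treated tumour lay above every vehicle tumour. The means were 198 ± 21.0 and 358 ± 36.7 (SD, n = 3 per group), a ratio of 1.81 and a log2 difference of 0.85 ± 0.13 (SE; limma adjusted p = 0.0954, DESeq2 adjusted p = 0.000168, edgeR adjusted p = 0.0926). Leaving out 1 library kept the log2 difference between 0.77 and 0.93, with limma adjusted p from 0.035 to 0.296. It passed without PEG-glutaminase 2, and it also passed, at a limma adjusted p of 0.0107, when no filter on low values was applied. Mmp9 is stored in neutrophil granules and is also made by macrophages and osteoclasts. Of the 5 tested neutrophil markers 0 passed in limma or DESeq2, their sum over 12 markers was 340.4 to 989.8 in vehicle and 322 to 742 in PEG-glutaminase tumours, Elane and Ngp were at 0, and Ly6g had 1 read in all. Of 11 tested macrophage markers limma called 0, while DESeq2 called Mrc1, the mannose receptor, which stood at 2283 ± 322 and 6239 ± 2358 normalized counts (limma adjusted p = 0.124, DESeq2 adjusted p = 0.00259). The macrophage marker sum was 43575.5 to 59300.5 in vehicle and 51051 to 57472 in PEG-glutaminase tumours, with no marker at 0 throughout. Osteoclast markers summed to 217 to 388 in vehicle and 352 to 619.7 in PEG-glutaminase tumours, and Ctsk was the 1 of 3 tested that DESeq2 called (adjusted p = 0.0415). Acp5 had a log2 difference of 0.20 and Ocstamp of -0.66 (limma adjusted p of 0.597 and 0.477). Oscar, Dcstamp and Calcr were too low to test, at no more than 5.94 normalized counts in any library. The part of these markers in the Mmp9 difference was not tested, and in bulk tissue more cells of a type and more RNA per cell cannot be told apart.

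Mmp2, the gelatinase of fibroblasts that Mmp14 activates at the cell surface, had 354, 271 and 479.7 normalized counts in vehicle tumours and 354, 879 and 248 in PEG-glutaminase tumours. PEG-glutaminase 2 was the highest and PEG-glutaminase 3 the lowest of all 6, so the groups overlap fully. Its log2 difference was 0.25 ± 0.54 (limma adjusted p = 0.837) and turned to -0.27 without PEG-glutaminase 2.

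Among membrane-type MMPs, Mmp14 (ENSMUSG00000000957), the main collagenase of the cell surface, had 4115, 4022 and 4216 normalized counts in vehicle and 3475, 3809 and 3362 in PEG-glutaminase tumours. The groups did not overlap, but the shift was small beside those of Mmp9 or Mmp25. Means were 4118 ± 97.3 and 3549 ± 233, with a log2 difference of -0.22 ± 0.08 (limma adjusted p = 0.203, DESeq2 adjusted p = 0.171). Mmp25, a glycolipid-anchored protease typical of neutrophils, had 70.5, 58.9 and 117 normalized counts in vehicle and 40.4, 34.6 and 56.6 in PEG-glutaminase tumours. The highest treated value lay just under the lowest vehicle value, and vehicle 3 was far above the other vehicle tumours. Its log2 difference was -0.86 ± 0.29 (limma adjusted p = 0.185), and -0.57 without vehicle 3. Neutrophils are known to make both Mmp25 and Mmp9. Mmp9 was higher and Mmp25 lower here, and the part of neutrophils in either difference was not tested. Mmp15 had 115, 105 and 176 in vehicle and 174, 184 and 149 in PEG-glutaminase tumours, which overlap (log2 difference 0.39 ± 0.20, limma adjusted p = 0.327). Its difference was 0.24 without vehicle 2 and 0.61 without vehicle 3 (limma adjusted p of 0.643 and 0.197).

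**Figure D3:**
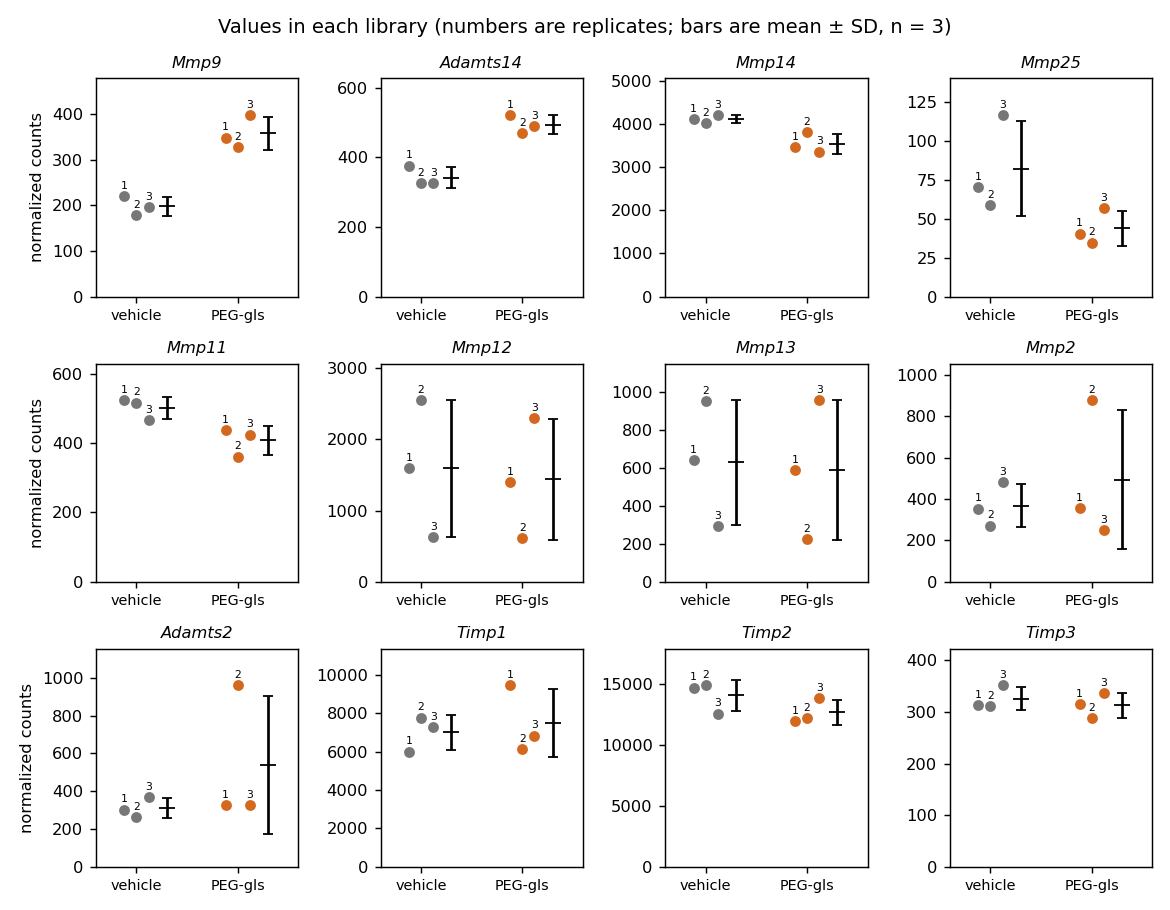
Normalized counts of 12 members in each library (points, numbered by replicate) with the mean ± SD of each group (n = 3), axes starting at 0. Mmp9 and Adamts14 are higher in all 3 PEG-glutaminase (PEG-gls) tumours, Mmp14, Mmp25 and Mmp11 lower, while the 2 groups of Mmp12 and Mmp13 cover nearly the same wide range.

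The collagenases Mmp13 and Mmp8 and the macrophage elastase Mmp12 varied far more between tumours of a group than between the groups. The stromelysin Mmp3 varied less, spanning 1.75-fold from its lowest to its highest library. The collagenase Mmp1b was at 0, and the stromelysin Mmp10 had too few reads to judge. In the mouse reference GRCm38 these genes lie side by side on chromosome 9, where 10 neighbouring genes that RefSeq lists as protein coding form an unbroken cluster in the order Mmp13, Mmp12, Mmp1b, Mmp3, Mmp1a, Mmp10, Mmp8, Mmp27, Mmp20 and Mmp7. The deposited table lists Mmp1a among them as a polymorphic pseudogene. The 100 bases before the annotated starts of 6 of them are printed for the members of the cluster that had reads: Mmp12, Mmp13, Mmp3 and Mmp8 shared their lowest libraries, Mmp27 did not, and Mmp10 had too few reads to order. They come from the RefSeq promoter table (GRCm38.p6, plus strand, a C57BL/6J sequence and not that of BALB/c) and are given in lower case, with matches to the AP-1 motif TGACTCA or its reverse complement TGAGTCA in capitals. The choice of these genes was made after their values were seen.
Mmp13, chr9:7272414-7272513: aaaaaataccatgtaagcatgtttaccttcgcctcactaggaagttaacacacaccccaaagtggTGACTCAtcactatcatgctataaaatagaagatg
Mmp12, chr9:7347274-7347373: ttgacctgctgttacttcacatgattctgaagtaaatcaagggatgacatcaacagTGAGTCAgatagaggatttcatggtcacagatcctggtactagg
Mmp3, chr9:7445722-7445821: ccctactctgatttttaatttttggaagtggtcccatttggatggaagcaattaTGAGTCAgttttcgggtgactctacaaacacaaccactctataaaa
Mmp10, chr9:7502242-7502341: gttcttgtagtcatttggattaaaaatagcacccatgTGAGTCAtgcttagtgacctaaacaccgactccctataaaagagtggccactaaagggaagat
Mmp8, chr9:7558329-7558428: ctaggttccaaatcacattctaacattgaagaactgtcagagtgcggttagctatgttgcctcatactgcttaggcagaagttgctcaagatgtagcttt
Mmp27, chr9:7571296-7571395: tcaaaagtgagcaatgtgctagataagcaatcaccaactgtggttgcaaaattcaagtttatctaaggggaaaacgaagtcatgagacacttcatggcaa

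AP-1 is the Fos and Jun family of transcription factors, which growth signals and inflammation induce. The match begins 35 bases before the start in Mmp13, 44 in Mmp12 (at the second of its 2 annotated starts, with no match at the first), 46 in Mmp3 and 63 in Mmp10. In windows of 300 bases, from 250 before to 50 after a start, the motif on either strand was present in 5.2% of all 32851 windows. Per gene it was present in at least 1 window of 5.95% of 27025 genes and of 6 of the 31 members with a window (19.4%), all of them in this cluster: the 4 above, Mmp1b and Mmp7. No match was found for Mmp8, Mmp27 or Mmp20. Another 14 members, among them Mmp2, Mmp9, Mmp19 and Adamts4, had no window and were not searched. A match describes these letters only, and Mmp1b and Mmp7 with a match were at 0 reads.

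Mmp12, which macrophages secrete to digest elastin, had 1592, 2555 and 627 normalized counts in vehicle tumours and 1397, 614 and 2303 in PEG-glutaminase tumours. Mmp13, a collagenase of fibroblasts, bone cells and cartilage, had 641, 953 and 292 in vehicle and 588, 223 and 959 in PEG-glutaminase tumours. In both genes vehicle 3 and PEG-glutaminase 2 were the lowest, and vehicle 2 and PEG-glutaminase 3 the highest. While each gene spanned over 4-fold (highest to lowest library 4.16 for Mmp12 and 4.30 for Mmp13), the ratio of their reads stayed between 2.14 and 2.76 in the 6 libraries. The treatment groups overlapped fully, with log2 differences of -0.12 ± 0.76 for Mmp12 and -0.17 ± 0.73 for Mmp13 (limma adjusted p of 0.947 and 0.924).

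Mmp3, which cleaves proteoglycans and other MMP precursors, had 429.8, 486 and 353 normalized counts in vehicle and 435, 278 and 444 in PEG-glutaminase tumours (log2 difference -0.15 ± 0.20, limma adjusted p = 0.709). Mmp8, the neutrophil collagenase, had 19.3, 22.6 and 14.7 in vehicle and 30.0, 7.92 and 26.7 in PEG-glutaminase tumours (0.01 ± 0.48, limma adjusted p = 0.993). Vehicle 3 and PEG-glutaminase 2 were again the lowest libraries for both. For Mmp8 the place of vehicle 3 rests on 15 reads against 20 and 23 in the other vehicle tumours, a gap that counting error alone could give. This order of libraries held for 5 of the 29 tested members, the fifth being Adamts4, and for 6.45% of all tested genes; it was noticed in the data and not planned. Mmp10 had 5, 13 and 6 reads in vehicle and 12, 4 and 9 in PEG-glutaminase tumours, too few to order. Of 5 tested neutrophil markers, 4 (Cxcr2, Lcn2, S100a8 and S100a9) had the same pair lowest: S100a9 stood at 38.3 in vehicle 3 and 59.4 in PEG-glutaminase 2, against 73.4 to 141 in the other libraries. Cxcr2 counts among them only through the scaling of libraries. It stood at 15.8 in PEG-glutaminase 2 and 16.5 in PEG-glutaminase 3, which are equal numbers of reads. The fifth, Csf3r, the receptor for granulocyte colony-stimulating factor, was highest in vehicle 3, at 183, and lowest in PEG-glutaminase 2, at 89.1. Lcn2, a secreted iron-carrier-binding protein of neutrophils and epithelium, stood at 61.8 and 119 there, against 243 to 637 elsewhere. None of 11 tested macrophage markers had that pattern, and whether neutrophil content bears on these MMP levels was not tested.

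**Figure D4:**
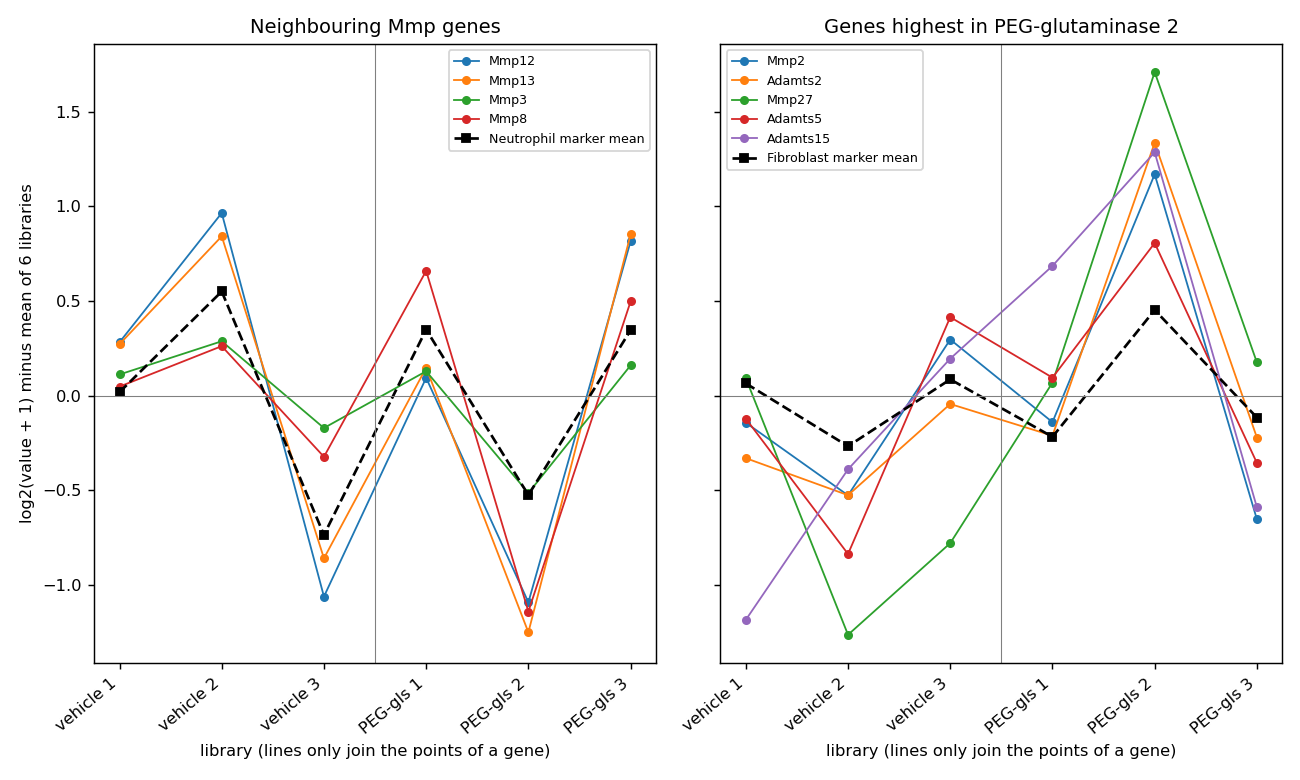
Deviation of each library from the mean of the 6 (log2 of normalized counts + 1) for neighbouring Mmp genes with the mean of the tested neutrophil markers (left), and for members highest in PEG-glutaminase 2 with the mean of the tested fibroblast markers (right). On the left, vehicle 3 and PEG-glutaminase 2 are low for all 4 genes and for the markers. These 4 genes were chosen after their values were seen, so the order they share is no finding. Mmp27, a tested neighbour without that order, is drawn on the right. On the right, the 5 genes were chosen because PEG-glutaminase 2 is their highest library, so their peak there is no finding. Mmp15 and Adamts12, also highest there, are not drawn.

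Mmp27, though a neighbour of Mmp8, had 11.6, 3.92 and 5.89 normalized counts in vehicle tumours and 11.4, 37.6 and 12.3 in PEG-glutaminase tumours. PEG-glutaminase 2 was more than 3-fold above any other library, and vehicle 1 lay within the range of the treated tumours. The log2 difference of 1.30 ± 0.56 (limma adjusted p = 0.253) rests on counts under 40 reads, and without PEG-glutaminase 2 its mean is under the filter and it was not tested.

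Mmp11, stromelysin-3, which is typical of fibroblasts beside carcinoma cells, had 525, 518 and 467 normalized counts in vehicle and 439, 361 and 425 in PEG-glutaminase tumours. The groups did not overlap (log2 difference -0.30 ± 0.11, limma adjusted p = 0.198, DESeq2 adjusted p = 0.217). Mmp28, epilysin, a protease of skin and other epithelia, had 251, 185 and 194 in vehicle and 136, 95.0 and 223 in PEG-glutaminase tumours. It was highest in vehicle 1, the library with the high keratinocyte markers, and its groups overlap (-0.55 ± 0.29, limma adjusted p = 0.351). Leaving out vehicle 1 gave a difference of -0.41, leaving out PEG-glutaminase 2 gave -0.26, and leaving out PEG-glutaminase 3 gave -0.87 (limma adjusted p = 0.0922 for the last). Mmp19 had 465, 426 and 535 in vehicle and 438, 403 and 474 in PEG-glutaminase tumours, which overlap (-0.11 ± 0.11, limma adjusted p = 0.617). Mmp23 stood between 19.6 and 30.4 in all libraries (-0.05 ± 0.30, limma adjusted p = 0.941).

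The ADAMTS proteoglycanases cut aggrecan and versican. Of 7 members 6 were tested, 4 with a positive and 2 with a negative log2 difference, and 0 passed by limma, edgeR or DESeq2 (0 at an unadjusted limma p under 0.05). Adamts1, also known to restrain vessel growth, had 1004, 846 and 841 normalized counts in vehicle and 791, 529 and 1011 in PEG-glutaminase tumours. PEG-glutaminase 2 was the lowest and PEG-glutaminase 3 the highest library, and without the former the log2 difference moved from -0.25 ± 0.23 (limma adjusted p = 0.589) to 0.00161. Adamts4, aggrecanase-1, had 591, 567 and 543 in vehicle and 705, 564 and 706 in PEG-glutaminase tumours. PEG-glutaminase 2 alone lay within the vehicle range (0.21 ± 0.11, limma adjusted p = 0.326). Adamts9 had 133, 105 and 140.3 in vehicle and 174, 133 and 182 in PEG-glutaminase tumours, again with PEG-glutaminase 2 within the vehicle range (0.36 ± 0.18, limma adjusted p = 0.308). Adamts5, aggrecanase-2, had 32.8, 19.6 and 48.1 in vehicle and 38.3, 63.4 and 27.8 in PEG-glutaminase tumours (0.36 ± 0.39, limma adjusted p = 0.633), a difference of 0.0353 without vehicle 2 and 0.0509 without PEG-glutaminase 2. Unlike Adamts1 and Adamts4 it was highest in PEG-glutaminase 2. The lowest of the tested proteoglycanases were Adamts15, at 5.80 to 36.6, and Adamts20, at 6.17 to 17.7 normalized counts (log2 differences 0.92 ± 0.54 and -0.32 ± 0.47, limma adjusted p of 0.377 and 0.732).

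The procollagen N-proteinases Adamts2 and Adamts14, which remove the amino-terminal propeptide of fibrillar collagens, behaved differently from each other. Adamts14 (ENSMUSG00000059901) had 376, 325 and 325 normalized counts in vehicle tumours and 522, 469 and 489.7 in PEG-glutaminase tumours. The groups were far apart relative to their spread, at 342 ± 29.5 and 494 ± 26.6 (SD, n = 3 per group). The log2 difference was 0.53 ± 0.10 (limma adjusted p = 0.111, DESeq2 adjusted p = 0.00955, edgeR adjusted p = 0.115), and it lay between 0.49 and 0.60 with any 1 library left out (limma adjusted p from 0.0879 to 0.296). With no filter on low values the limma adjusted p was 0.0474. Adamts2 had 302, 264 and 369 in vehicle and 328, 961 and 326 in PEG-glutaminase tumours. Its mean difference rested on PEG-glutaminase 2, since the log2 difference of 0.60 ± 0.48 (limma adjusted p = 0.539) was 0.0836 without that library. The summed level of 10 fibroblast markers was 52753 to 71535 normalized counts in vehicle and 59365 to 75332 in PEG-glutaminase tumours, the highest in PEG-glutaminase 2. No fibroblast marker was at 0 in all libraries and 0 of the 10 passed by limma or DESeq2 (0 at an unadjusted limma p under 0.05). The part of fibroblast content in the Adamts14 values was not tested.

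Adamts7 and Adamts12 cut cartilage oligomeric matrix protein. Adamts7 had 474, 460.1 and 403 normalized counts in vehicle and 312, 329 and 442 in PEG-glutaminase tumours. PEG-glutaminase 3 lay among the vehicle values (-0.32 ± 0.14, limma adjusted p = 0.268). Adamts12 had 37.7, 24.5 and 23.5 in vehicle and 30.0, 40.6 and 19.5 in PEG-glutaminase tumours (0.04 ± 0.34, limma adjusted p = 0.956). The fibrillin-binding Adamts6 had 184, 149 and 161 in vehicle and 150.2, 99.0 and 141 in PEG-glutaminase tumours. Its groups overlapped by a single pair of libraries, vehicle 2 and PEG-glutaminase 1 (-0.36 ± 0.19, limma adjusted p = 0.326), and the difference was -0.17 without PEG-glutaminase 2. Adamts10, its closest relative, had 404, 353 and 456 in vehicle and 385, 447 and 523 in PEG-glutaminase tumours (0.16 ± 0.14, limma adjusted p = 0.557), so the groups overlapped there too. Its difference ran from 0.0460 without PEG-glutaminase 3 to 0.27 without PEG-glutaminase 1.

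The median spread over the libraries was smallest in the TIMPs, though not every TIMP varied little. Their 3 tested genes ran from 1.22-fold to 1.58-fold, and Timp1, at 1.58, spanned more than Mmp14, at 1.25. From lowest to highest library they spanned 1.24-fold in the median of the 3 tested genes, against 2.44-fold in the median MMP, 1.89-fold in the median ADAMTS and 1.38-fold in the median of all tested genes, though the highly counted TIMPs also have less counting error. Timp1, which cells make in response to inflammation and growth factors, had 5998, 7765 and 7258 normalized counts in vehicle and 9467, 6133 and 6838 in PEG-glutaminase tumours. Only PEG-glutaminase 1 lay above the vehicle range (0.08 ± 0.17, limma adjusted p = 0.836). Timp2, which also takes part in the activation of Mmp2 by Mmp14, had 14681, 14891 and 12554 in vehicle and 11966, 12201 and 13820.3 in PEG-glutaminase tumours, which overlap (-0.15 ± 0.10, limma adjusted p = 0.449). Timp3, the matrix-bound inhibitor, had 314, 312 and 352 in vehicle and 316, 288 and 336 in PEG-glutaminase tumours (-0.06 ± 0.11, limma adjusted p = 0.814). Timp4 had 1, 0 and 2 reads in vehicle and 0, 1 and 0 in PEG-glutaminase tumours. Timp1, Timp3 and Timp4 lie within synapsin genes on the opposite strand in the mouse reference, and the sources used here do not say whether counting used strand. Per transcript length, the summed TIMP level was 3.86, 4.20 and 4.73 times the summed MMP level in vehicle tumours and 5.57, 4.41 and 4.07 times in PEG-glutaminase tumours. The groups overlap in this ratio, and the highest value belongs to PEG-glutaminase 1, the library with the most Timp1.

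**Figure D5:**
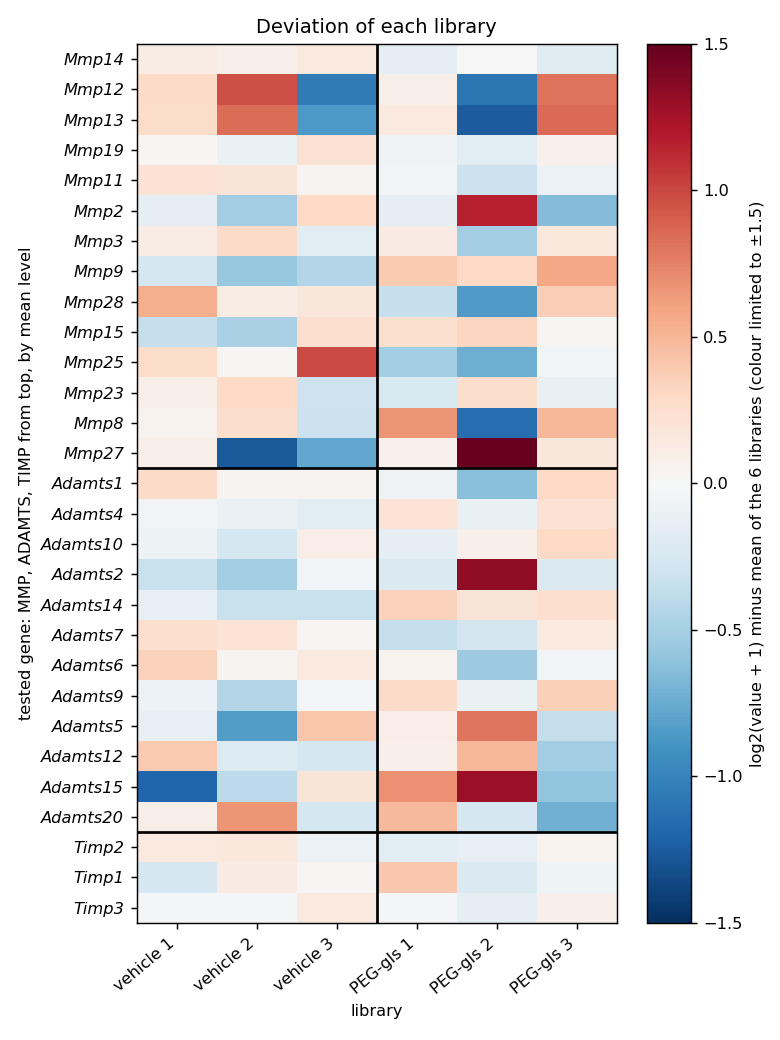
Deviation of each library from the mean of the 6 (log2 of normalized counts + 1, colours limited to ±1.5) for the 29 tested genes, by family and mean level. PEG-glutaminase 2 is the lowest library of 11 genes and the highest of 7.

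PEG-glutaminase 2 was the highest library for 7 of the 29 tested members (Mmp2, Mmp15, Mmp27, Adamts2, Adamts5, Adamts12 and Adamts15), close to the background of 23.9% of all tested genes. It was the lowest for 11 members (Mmp3, Mmp8, Mmp11, Mmp12, Mmp13, Mmp19, Mmp25, Mmp28, Adamts1, Adamts6 and Timp3), where the background was 24.6%. In the same library 5 of 10 fibroblast markers (Col1a1, Col3a1, Fap, Lum and Postn) and 8 of 10 endothelial markers were the highest, while Dcn, which encodes decorin, was the lowest. Without vehicle 1 and PEG-glutaminase 2 together limma called 6 genes over all and 0 members. Mmp9 then stood at 0.99 (limma adjusted p = 0.0736) and Adamts14 at 0.64 (limma adjusted p = 0.114).

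Other genes of the pathway were read from lists, with the share of genes at an unadjusted limma p under 0.05 in either direction being 18.4% over all genes. Of 11 tested genes that activate or clear these proteases, limma called 0, with 1 higher and 2 lower at an unadjusted p under 0.05. Plau, urokinase, which generates plasmin, had 1847, 2254 and 1923 normalized counts in vehicle and 2545, 2575 and 2319 in PEG-glutaminase tumours, with no overlap (0.31 ± 0.09, limma adjusted p = 0.154). Ctsg, cathepsin G of neutrophils and mast cells, which can activate MMP precursors, had 90.8, 96.1 and 52.0 in vehicle and 9.32, 14.9 and 37.0 in PEG-glutaminase tumours (-2.08 ± 0.48, limma adjusted p = 0.122, DESeq2 adjusted p = 0.00283). Of the other inhibitors and collagen partners 7 of 10 were tested and limma called 0, with 1 higher (Serpinh1) and 2 lower (Pcolce and Reck) at an unadjusted p under 0.05. Serpinh1 (0.26 ± 0.10) and Pcolce (-0.23 ± 0.08) had no overlap between groups (limma adjusted p of 0.224 and 0.203). Reck, a membrane-anchored inhibitor of several MMPs, had 289, 288 and 231 in vehicle and 179, 146 and 249.99 in PEG-glutaminase tumours, which overlap through PEG-glutaminase 3 (-0.52 ± 0.19, limma adjusted p = 0.215).

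Among 5 tested ADAMTS-like genes, which share the ancillary domains but lack the protease, limma called 0 and 1 was higher at an unadjusted p under 0.05. Among 7 ADAM sheddases the same held, the 1 being Adam12 at 0.41 ± 0.14 (limma adjusted p = 0.197). Of 18 tested substrates limma called 1, Thbs2, a thrombospondin that binds Mmp2 and promotes its uptake, which fell from 6462 ± 785 to 3131 ± 415 normalized counts (-1.05 ± 0.12, limma adjusted p = 0.0371). Dropping PEG-glutaminase 1, vehicle 1 or vehicle 2 removed that call, since limma then called 0 genes over all. At an unadjusted p under 0.05, 2 substrates were higher and 1, Thbs2, was lower. Vcan, which encodes versican, the substrate of Adamts1, Adamts4, Adamts5 and Adamts9, had 182, 118 and 190.3 in vehicle and 263, 439 and 201 in PEG-glutaminase tumours, with no overlap (0.83 ± 0.32, limma adjusted p = 0.236, DESeq2 adjusted p = 0.0432). Of 14 transcription factors that bind protease promoters limma called 0, with 0 higher and 1 lower at an unadjusted p under 0.05. That was Fosb of the AP-1 family, at 250.1 ± 9.31 and 166 ± 48.9 normalized counts (-0.63 ± 0.19, limma adjusted p = 0.154), while the other AP-1 genes lay on either side of 0. Jun stood at 0.17 ± 0.09, Fosl1 at 0.19 ± 0.11 and Fosl2 at 0.06 ± 0.13, and Junb at -0.33 ± 0.16, Jund at -0.22 ± 0.14 and Fos at -0.08 ± 0.35 (limma adjusted p from 0.304 for Junb to 0.924 for Fos).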

How the data were processed

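RNA sequencing of 6 tumours, 3 per group as named in the sample titles, was analysed. Per the file headers the deposited table gives, for each BALB/cJ gene model, the authors' normalized counts per library, an expression signal obtained as reads divided by a size factor. Per the submitters' processing notes the tools were FastQC, STAR, featureCounts, DESeq2 and DESeq, while build and strandedness were not given in the sources used here. Divided by the value that 1 read takes in its library, 100% of non-zero values came out whole in every library (tolerance 0.01). Whole reads were thus recovered from the values alone, in the same way for every library. The authors' deposited mean signal differed by over 1% from the mean of the 6 libraries in 18717 of 23795 models with a signal, so the authors' own comparison was not used. Of 40396 rows, 93 that repeat a model were dropped, and 2902 models without a symbol held 0.13% to 0.214% of reads.

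Because the values are normalized, limma 3.58.1 in R 4.3.3 (mean trend, robust, two-sided) was fitted to log2(normalized counts + 1) of 13557 genes with a mean of at least 10, with Benjamini-Hochberg adjustment over all of them and a threshold of 0.05. This understates the change of low genes. The plan named edgeR for raw counts; edgeR 4.0.16 and DESeq2 1.42.0 ran on the recovered reads as alternatives, beside other pseudocounts, filters, TMM scaling, a replicate block and each library left out. An exact permutation test of 3 against 3 cannot give a p below 0.1. Levels per length use the longest transcript in GENCODE M21, an annotation of another assembly, for lengths only.

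The members, lists and tests were chosen with earlier results of these data known. Values in every library are given for each TIMP, the most abundant tested member of each role class, the 12 members of smallest limma p and a fixed set of 9. Mice are separate animals, so p-values measure the spread between tumours.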

Additional observations from a re-analysis of the deposited data

How the results depend on the processing

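The count of members called by limma, 0, became 2 (Mmp9 and Adamts14) with no filter on low values or with DESeq2 and 1 (Mmp9) at an adjusted p of 0.1, and lay between 0 and 1 when 1 library was left out, the 1 being Mmp9 without PEG-glutaminase 2 (limma adjusted p = 0.035). The count of all genes called, 5, was 136 with no filter, 487 with DESeq2, 1 with the replicate block and 9 at an adjusted p of 0.1. With 1 library left out it lay between 0 and 26, being 0 without vehicle 1, vehicle 2 or PEG-glutaminase 1 (2366, 1683 and 1936 genes at an unadjusted limma p under 0.05), 20 if PEG-glutaminase 2 and 26 if PEG-glutaminase 3 was dropped. The MMP median then lay between -0.21 and 0.0669, the ADAMTS median between 0.0491 and 0.25. Leaving out vehicle 1 and PEG-glutaminase 2 together, chosen after seeing the data, put the ADAMTS median at 0.0830 and the MMP median at 0.0103 and turned Mmp2 to -0.28, Mmp3 to 0.0862, Mmp12 to 0.50, Mmp13 to 0.51 and Adamts1 to 0.0853. Log2 differences that changed sign without 1 library ranged from -0.27 to 0.64 for Mmp2, -0.27 to 0.0684 for Mmp3, -0.68 to 0.39 for Mmp12, -0.64 to 0.41 for Mmp13, -0.47 to 0.00161 for Adamts1, -0.20 to 0.31 for Adamts12, -0.11 to 0.21 for Timp1 and -0.11 to 0.00215 for Timp3. The causes were not tested. Shared replicate numbers are not stated to pair the tumours. Same-numbered libraries correlated in their deviations at -0.13, -0.21 and -0.22. Differently numbered libraries were not compared, so these values cannot settle whether same-numbered tumours shared a batch. With the replicate block 0 members passed and Mmp9 had a limma adjusted p of 0.109. Members under 10 normalized counts cannot be compared at this depth, and Mmp27 gave no value without PEG-glutaminase 2 or at a mean of at least 50.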
